A study of Mus musculus with 2 samples.

Results

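The cadherin superfamily genes described here were all rows of the deposited gene table named as a numbered cadherin (Cdh), a protocadherin (Pcdh), Fat1 to Fat4, Dchs1, Dchs2 or Celsr1 to Celsr3. The table held 68 such genes of 13916 protein-coding genes. Of these, 35 were non-clustered genes and 33 belonged to the clustered protocadherins, which are given apart: 21 genes of the Pcdhb cluster and 12 of the Pcdhg cluster. The GENCODE M21 annotation (GRCm38) names 100 protein-coding genes that fit the same names. The Pcdha cluster, with 14 annotated genes, and Cdh7, Cdh19, Cdh22, Cdh23, Cdh26, Fat2, Dchs2, Pcdh1, Pcdhb1 and 9 of the 21 annotated Pcdhg genes were not analysed here.

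The tissue was a limb-mesenchymal organoid grown from embryonic limb mesenchymal cells of Slc:ICR mice, an outbred stock, for 48 h in medium with Fgf8b and Wnt3a and frozen at day 2. Both groups shared this origin, medium and time, and differed in the position of the tissue: distal or proximal regions of 10 µm sections, lit at 365 nm for 3 min so that caged reverse transcription primers in the lit region were released (photo-isolation chemistry). The 5 organoids came from 4 cultures, and the labels give neither the age of the embryos nor the organoid behind each region. Regions of 1 side, 5 in number and each with its own barcode, were pooled into 1 library, so side and library cannot be told apart, and the p-values measure the spread between regions. In such bulk regions, fewer cells of a type and less RNA per cell cannot be told apart.

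Depth set what could be seen. The table holds a mean and a comparison per gene but no region values, and the counts given below were read from it. Regions held about 46991 to 118978 counts on the distal side and about 214774 to 345649 on the proximal side, and the proximal side was 3.30 times deeper in sum. In each side the regions are listed from the deepest to the shallowest; the barcode label behind each is not known. A normalized count is a count divided by the region's size factor, a scale that is not corrected for transcript length, so the levels of different genes are not compared. The limb mesenchyme markers were present, 15 of 15, among them Prrx1 with a mean normalized count of 159. In the authors' deposited table, 3 of them were called higher in distal regions (Hoxd13, Msx1 and Lhx2) and 2 lower (Pdgfra and Tbx5). Of 12 cartilage markers 10 were in the table, with 1 (Sox9) called higher in distal regions and 0 lower. Over all genes, 0.395% were called higher and 0.582% lower. Of the 15 skeletal muscle markers, 4 were called lower in distal regions in the authors' deposited table. The 14 with region counts summed to between 0 and 14.3 normalized counts in distal and between 35.7 and 96.3 in proximal regions. Pax3, Myf5, Myl4, Tnnt2 and Tnnc1 had 0 distal counts. So had Pax7, but it held only 2 counts in all, in the deepest proximal region, which is too few to show a difference. Only 4 of 13 surface ectoderm markers were in the table (Epcam, Krt14, Trp63 and Grhl3), and their sum lay between 0 and 3.04 in distal and between 0.414 and 2.00 in proximal regions.

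Cadherins are calcium-dependent adhesion proteins of the cell surface. Classical cadherins join like cells and hold the actin cytoskeleton through catenins. Protocadherins give weaker, more specific contacts and signal inside the cell. Fat and Dachsous proteins bind each other between neighbouring cells and feed into the Hippo pathway and planar polarity, and Celsr proteins are core members of the planar polarity system. In the limb bud, cadherin adhesion is known for its part in the condensation of mesenchyme before cartilage forms.

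No cadherin superfamily gene passed the authors' test. In the authors' deposited table, 0 of 68 had an adjusted p under 0.05, against 0.977% of all genes (0.395% higher and 0.582% lower in distal regions). The smallest adjusted p among the members was 0.195, for Pcdh10, in the authors' deposited table. At an unadjusted p under 0.05 the authors' deposited table held 6 members, or 8.82%, all with the lower value in distal regions: Pcdh10, Cdh4, Pcdh17, Pcdh18, Pcdhgc4 and Cdh13. Over all genes in the authors' deposited table, that threshold was passed by 3.51% with the lower value and by 2.56% with the higher value in distal regions. Among members with a mean of at least 1, 18 of 33 had a negative log2 change, or 54.5%, against 53.0% of all genes with such a mean in the authors' deposited table.

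Low counts limited the test for most members. Their median mean normalized count was 0.891, against 3.40 for all genes, and 35 of 68 had a mean under 1. For 24 members both sides held 3 counts or fewer, and 14 had 1 count in all 10 regions together. With the SE of each gene, only Cdh11, Pcdh18, Fat4 and Fat1 could have been called at a 2-fold difference, and 10 members at a 4-fold difference. For genes with 1 count the deposited log2 change was positive whichever side held it, 2.34 where the count was distal and 1.19 where it was proximal in the authors' deposited table. So the sign of the log2 change is not read as a direction for such genes, and the counts of each side are given. This scale also sets the median log2 change of 0.22 over all 68 members, which was -0.13 over the 33 members with a mean of at least 1 in the authors' deposited table. The same medians over all genes of the authors' deposited table were 0.07 and -0.03.

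**Figure D1:**
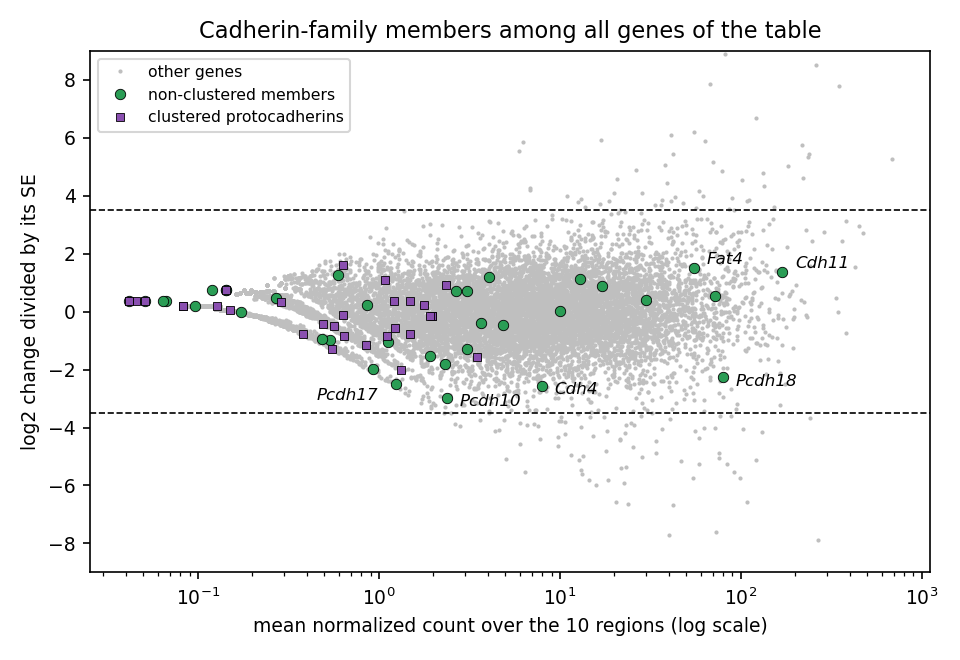
Each point is 1 gene of the table: the horizontal axis is its mean normalized count over 10 regions on a log scale, the vertical axis the authors' log2 change divided by its SE (positive, higher in distal). Dashed lines mark the smallest size of that statistic among called genes, 3.50; all 68 members, in green (non-clustered) or purple (clustered), lie between them, and 4 other genes beyond 9 in size are not drawn.

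Among the type I classical cadherins, which carry the best known homophilic adhesion, Cdh3, Cdh2 and Cdh4 were well covered and Cdh15 and Cdh1 were near the limit of detection. Cdh3 (P-cadherin, best known from epithelia) had a mean normalized count of 71.6 and a log2 change of 0.16 ± 0.29 (SE) in the authors' deposited table. Its 95% interval ran from -0.41 to 0.73 in the authors' deposited table, so a difference of 2-fold in either direction lies outside it. Cdh1 (E-cadherin, the adhesion molecule of most epithelia) had 1 count in all 10 regions, in the deepest proximal region. The genes lie next to each other on the same strand, Cdh3 at chr8:106510891-106557297 and Cdh1 at chr8:106603351-106670246, with 46054 bases between them. The surface ectoderm sums given above were at most 3.04 normalized counts in any region, so Cdh3 was measured in tissue with 1 count of Cdh1 and few counts of those markers.

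Cdh2 (N-cadherin, the classical cadherin of mesenchymal condensations) read 15.6, 14.3, 8.95, 9.80 and 27.4 normalized counts in the distal regions. In the proximal regions it read 9.51, 16.7, 9.20, 6.38 and 11.98. The sides overlapped, and the shallowest distal region was the highest. Means were 15.2 ± 7.38 and 10.8 ± 3.89 (SD, n = 5 regions each), and the log2 change was 0.42 ± 0.37 (SE, adjusted p = 0.991, DESeq2-style fit) in the authors' deposited table.

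Cdh4 (R-cadherin, known from retina, brain and muscle) had 13 distal and 111 proximal counts. The distal regions read 0, 12.9, 3.58, 1.96 and 3.04 normalized counts, and the proximal regions 8.69, 13.1, 12.3, 14.04 and 9.99. Of the distal regions 4 lay below every proximal region, including the deepest distal one with 0 counts, while the second lay within the proximal range. Pooled over regions, Cdh4 was 2.59-fold lower in distal regions, with a 95% interval of 1.45 to 5.02 (exact binomial, counting error only). Its log2 change was -1.39 ± 0.54 (SE), with an unadjusted p of 0.0105 and an adjusted p of 0.419 per the authors' deposited table. Without the second distal region the pooled log2 ratio went from -1.37 to -2.68. That region also held the largest sum of muscle markers on the distal side, 14.3, beside 0, 3.58, 11.8 and 0 in the others. The part of muscle cells in the Cdh4 result was not tested.

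Cdh15 (M-cadherin, the cadherin of muscle satellite cells and myoblasts) had 0 distal and 12 proximal counts, the latter in 3 proximal regions at 1.65, 2.71 and 1.02 normalized counts. The other 2 proximal regions were at 0 like the distal ones, and the exact 95% counting interval of the distal to proximal ratio reached up to 1.19, so no lower level is shown. Its adjusted p was 0.991 in the authors' deposited table. The muscle marker sums differed in the same direction, and their part in the Cdh15 counts was not tested.

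The type II cadherins, a related class with its own adhesive interface, held 10 members, none with an unadjusted p under 0.05 in the authors' deposited table. Cdh11 (OB-cadherin, the main cadherin of mesenchyme and bone-forming cells) was covered by the most counts of the 68 members, with a mean normalized count of 170. The log2 change of Cdh11 was 0.23 ± 0.17 (SE), with a 95% interval of -0.10 to 0.55 and an adjusted p of 0.991 per the authors' deposited table. Of all members Cdh11 was thus among those measured most tightly, and as a ratio of distal to proximal its interval ran from 0.934 to 1.47 in the authors' deposited table. Cdh6 (K-cadherin, known from kidney and neural crest) read 6.01, 18.6, 12.5, 11.8 and 0 normalized counts in distal and 9.10, 12.7, 11.8, 11.5 and 6.66 in proximal regions. The distal values of Cdh6 spanned the whole proximal range on both ends, with means of 9.78 ± 7.06 and 10.3 ± 2.44 (SD, n = 5 regions each). Its log2 change was 0.01 ± 0.41 (SE) in the authors' deposited table and became -0.06 when centred on the median of all genes.

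Cdh24, a type II cadherin that binds catenins, had 9 distal and 21 proximal counts, or means of 3.23 ± 2.18 and 2.14 ± 1.06 normalized counts (SD, n = 5 regions each). Cdh5 (VE-cadherin, the junction protein of endothelium) had 3 distal and 2 proximal counts. Of 11 endothelial markers 6 were in the table. Erg, a transcription factor also known from cartilage, had a mean normalized count of 28.5, too high for region counts to be read, and a log2 change of -0.44 per the authors' deposited table. The other 5 summed to between 0 and 4.30 normalized counts in distal and between 0.414 and 2.00 in proximal regions. The other 6 type II genes (Cdh8, Cdh9, Cdh10, Cdh12, Cdh18 and Cdh20) all had a mean under 1.

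Cdh13 (T-cadherin, held in the membrane by a lipid anchor in place of a cytoplasmic tail) had 0 distal and 18 proximal counts. All 5 proximal regions held it, at 2.48, 0.452, 3.07, 1.91 and 1.33 normalized counts, and all 5 distal regions were at 0. Against a limit of 3 counts over the distal side, with the proximal counts taken as exact, counting alone put Cdh13 at least 1.82-fold lower there. The exact 95% counting interval, which takes in the counting error of both sides, allowed 1.33-fold. Both limits leave the spread between regions out. The log2 change of Cdh13 was -2.49 ± 1.26 (SE), with a 95% interval of -4.96 to -0.03 in the authors' deposited table. As a ratio of distal to proximal, Cdh13 reached up to 0.980 in that interval. Its unadjusted p was 0.0474 and its adjusted p 0.903 in the authors' deposited table. Cdh16 and Cdh17, the 7-domain cadherins of kidney and gut epithelium, had 0 distal counts and 1 and 3 proximal counts.

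The delta protocadherins are non-clustered protocadherins with conserved cytoplasmic motifs; the delta-2 members among them (Pcdh8, Pcdh10, Pcdh17, Pcdh18 and Pcdh19) are known for acting on cell movement and on contacts in the nervous system, and several bind an actin-regulating complex. All 7 delta protocadherins in the table had a negative log2 change, with a median of -1.29, and 3 of them had an unadjusted p under 0.05 in the authors' deposited table. None had an adjusted p under 0.05, and the grouping was chosen after these values had been seen, so it is a description.

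The promoters of the 3 delta protocadherins with an unadjusted p under 0.05 are shown because these genes all had the lower value in distal regions. Each is 300 bases of RefSeq GRCm38.p6, from 250 bases before to 50 bases after the transcription start, written 5′ to 3′ on the strand of the gene, with the GC box (GGGCGG, or CCGCCC on the other strand) in capitals. Pcdh10 is at chr3:45378148-45378447 on the plus strand, Pcdh18 at chr3:49757267-49757566 on the minus strand and Pcdh17 at chr14:84443313-84443612 on the plus strand.
Pcdh10: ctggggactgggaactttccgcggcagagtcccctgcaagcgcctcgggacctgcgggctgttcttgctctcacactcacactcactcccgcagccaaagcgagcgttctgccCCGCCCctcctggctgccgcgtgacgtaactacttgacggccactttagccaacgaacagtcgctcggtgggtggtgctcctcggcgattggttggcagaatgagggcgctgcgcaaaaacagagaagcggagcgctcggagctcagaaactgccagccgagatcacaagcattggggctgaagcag
Pcdh18: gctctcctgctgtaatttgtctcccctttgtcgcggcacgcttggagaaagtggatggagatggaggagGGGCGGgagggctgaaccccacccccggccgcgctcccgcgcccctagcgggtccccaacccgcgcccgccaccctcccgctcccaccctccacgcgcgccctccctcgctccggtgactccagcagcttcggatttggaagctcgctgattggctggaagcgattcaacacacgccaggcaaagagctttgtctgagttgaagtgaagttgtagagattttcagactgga
Pcdh17: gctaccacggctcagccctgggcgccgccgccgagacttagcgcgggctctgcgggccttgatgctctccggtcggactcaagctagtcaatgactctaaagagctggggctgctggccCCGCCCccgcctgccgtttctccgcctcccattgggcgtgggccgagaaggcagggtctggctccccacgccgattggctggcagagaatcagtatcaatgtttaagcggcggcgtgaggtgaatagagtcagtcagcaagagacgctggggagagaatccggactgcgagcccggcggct
Each promoter held 1 GC box, a motif found in 35.7% of 32851 promoters of the same length and in 9 of 24 promoters of members, which belong to 23 genes. The promoters of Pcdh10, Pcdh18 and Pcdh17 held 24, 23 and 26 CpG dinucleotides, against a median of 7 over all promoters. An E-box (CAGGTG, either strand, in 20.2% of all promoters) and a TATA box (TATAAA, either strand, in 13.6%) were not among the letters of these 3 windows.

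Pcdh10 (OL-protocadherin, known for axon growth and cell movement) had 1 distal and 40 proximal counts. The distal regions read 0, 0, 0, 1.96 and 0 normalized counts, and the proximal regions 3.31, 3.17, 4.09, 3.19 and 7.99. Every proximal region thus lay above every distal region. The pooled ratio was 12.1-fold lower in distal regions, with a 95% counting interval from 2.06 to 491, wide because the distal side rests on 1 count. Its log2 change was -3.12 ± 1.052 (SE), with an unadjusted p of 0.00299 in the authors' deposited table.

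Pcdh17, known from the brain for synapses and collective axon extension, had 0 distal and 26 proximal counts. Its proximal regions read 4.55, 2.71, 2.56, 0.638 and 2.00 normalized counts, and every proximal region held at least 1 count. Against a limit of 3 counts over the distal side, with the proximal counts taken as exact, counting alone put Pcdh17 at least 2.63-fold lower there. The exact 95% counting interval allowed 1.99-fold, and both limits leave the spread between regions out. The log2 change of Pcdh17 was -2.95 ± 1.19 (SE), with a 95% interval of -5.28 to -0.62 in the authors' deposited table. As a ratio of distal to proximal, Pcdh17 reached up to 0.649 in that interval. Its unadjusted p was 0.0130 and its adjusted p 0.476 in the authors' deposited table.

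Pcdh18, a further delta-2 member, was the delta protocadherin covered by the most counts, with a mean normalized count of 80.1. Its log2 change was -0.44 ± 0.19 (SE), with a 95% interval of -0.82 to -0.06, an unadjusted p of 0.0234 and an adjusted p of 0.641 per the authors' deposited table. The deposited mean and log2 change put Pcdh18 at 67.9 normalized counts in distal and 92.3 in proximal regions. Of the members with p under 0.05, Pcdh18 rested on the most counts, about 199 distal and 891 proximal as computed from those values, and it had the smallest log2 change of the 6 in the authors' deposited table.

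Pcdh19, an X-linked protocadherin known from human epilepsy, had 3 distal and 28 proximal counts, or means of 0.839 ± 1.17 and 2.99 ± 1.19 normalized counts (SD, n = 5 regions each). Pcdh8 (arcadlin, known for cell movements in gastrulation) had 2 distal and 18 proximal counts. In both genes the sides overlapped, and the adjusted p was 0.991 in the authors' deposited table. Summed over Pcdh8, Pcdh10, Pcdh17 and Pcdh19, the distal regions read 3.61, 1.43, 1.79, 1.96 and 0 normalized counts. The proximal regions read 14.1, 8.14, 13.3, 7.02 and 15.3, so that each proximal sum was higher than each distal one. The 4 genes together had 6 distal and 112 proximal counts. That is 5.66-fold lower in distal regions, with a 95% interval of 2.52 to 15.8 (counting error only). The group was formed after the values had been seen and includes Pcdh10 and Pcdh17, which had a low p in these data. The separation of its sums is therefore a description. Pcdh18 is left out of these sums because its region counts could not be read. With Pcdh18 added at the counts computed from its deposited mean and log2 change, all 5 delta-2 genes came to about 205 distal and 1003 proximal counts, and the fold lower in distal regions was 1.48. Without Pcdh10 the sum of the other 3 was 4.37-fold lower, with an interval of 1.79 to 13.9. These 3 still include Pcdh17, with 0 distal and 26 proximal counts, so that sum does not stand apart from the genes with a low p. The skeletal muscle marker sums differed in the same direction, from at most 14.3 in distal to at least 35.7 in proximal regions. The 5 blood markers in the table, of 13 listed, held 2 distal and 31 proximal counts. Their sums lay between 0 and 1.96 normalized counts in distal and between 0.511 and 4.96 in proximal regions. The 9 Schwann cell and neuron markers, of 11 listed, held 17 distal and 86 proximal counts. Their sums lay between 1.96 and 12.2 in distal and between 5.74 and 11.996 in proximal regions. The blood and the Schwann cell and neuron sums overlapped between sides. The part of these cell types in the delta-2 result was not tested.

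The delta-1 members in the table were Pcdh7 and Pcdh9, and neither had an unadjusted p under 0.05. Pcdh7 (NF-protocadherin, known from ectoderm and neurons) read 2.40, 1.43, 3.58, 9.80 and 6.09 normalized counts in distal and 5.38, 5.88, 6.13, 4.47 and 3.33 in proximal regions, and its sides overlapped. Pcdh9 had 6 distal and 38 proximal counts, with means of 2.10 ± 1.65 and 4.06 ± 1.2001 normalized counts (SD, n = 5 regions each). Its log2 change was -0.96 ± 0.74 (SE) in the authors' deposited table, against -0.27 ± 0.57 (SE) for Pcdh7. Of the remaining non-clustered protocadherins, Pcdh15 (part of the tip link of hair cells) had 10 distal and 40 proximal counts, a log2 change of -0.27 ± 0.65 (SE) in the authors' deposited table and overlapping sides. Pcdh12, an endothelial protocadherin, had 1 count and Pcdh20 had 3.

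**Figure D2:**
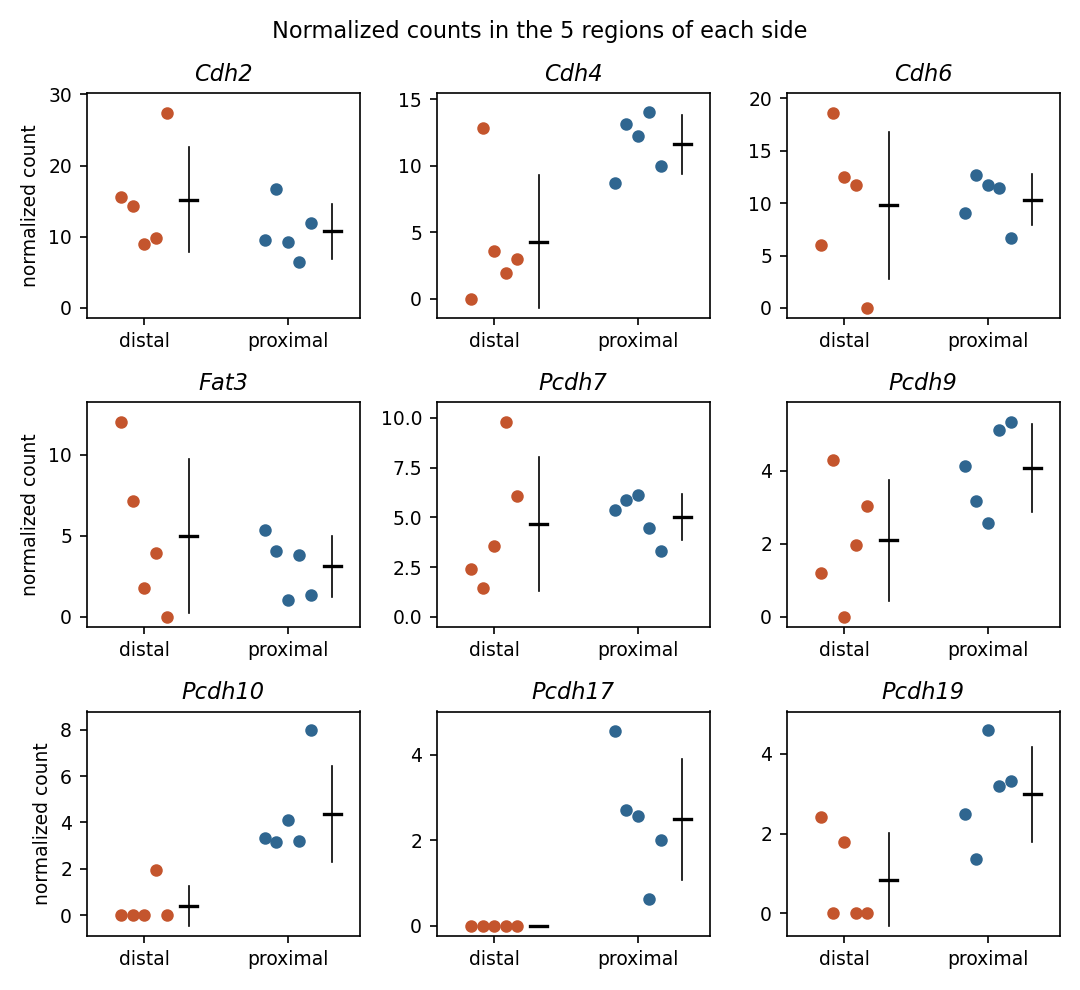
Normalized counts of 9 members, 1 point per region, 5 distal regions (orange) and 5 proximal regions (blue), each ordered from the deepest to the shallowest; bars give mean ± SD. Cdh2, Cdh6, Fat3, Pcdh7, Pcdh9 and Pcdh19 overlap between sides, Cdh4 overlaps through its second distal region at 12.9, and Pcdh10 and Pcdh17 do not overlap.

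Fat and Dachsous proteins are giant cadherins that form a receptor and ligand pair, and Fat4 with Dchs1 is the main pair of the mouse. In the table all 4 of these genes had a log2 change above 0, from 0.10 to 0.81, and none had an unadjusted p under 0.05 in the authors' deposited table. Fat4, the receptor, had a mean of 55.02 normalized counts and a log2 change of 0.27 ± 0.18 (SE), with a 95% interval of -0.08 to 0.62 in the authors' deposited table. Dchs1, its ligand, had a mean of 17.02 and a log2 change of 0.29 ± 0.33 (SE) in the authors' deposited table. Receptor and ligand were thus both detected on both sides, with intervals that included 0. Fat1, which acts on muscle and kidney shape, had a mean of 29.9 and a log2 change of 0.10 ± 0.25 (SE) in the authors' deposited table.

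Fat3, known for shaping retinal neurons, read 12.02, 7.16, 1.79, 3.92 and 0 normalized counts in distal and 5.38, 4.07, 1.02, 3.83 and 1.33 in proximal regions. The deepest distal region was the highest, the shallowest held no count, and the sides overlapped. Pooled, Fat3 was 1.85-fold higher in distal regions with a 95% counting interval of 0.980 to 3.40, and without the deepest distal region the log2 ratio went from 0.89 to 0.20. Fjx1, the kinase that modifies Fat and Dachsous proteins, had a log2 change of 0.08 ± 0.31 (SE) in the authors' deposited table.

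Of the Celsr genes, Celsr1 (the planar polarity cadherin of epithelia) had 10 distal and 24 proximal counts and means of 3.70 ± 2.85 and 2.44 ± 1.16 normalized counts (SD, n = 5 regions each). Celsr2, known from ciliated cells and neurons, had 3 distal and 34 proximal counts. It read 0, 0, 3.58, 1.96 and 0 in distal and 2.90, 2.26, 6.13, 3.83 and 2.66 normalized counts in proximal regions, and the third distal region lay within the proximal range. Celsr2 was 3.44-fold lower in distal regions over the pooled counts, with a 95% counting interval of 1.08 to 17.5. Its unadjusted p was 0.0724 in the authors' deposited table, and without the third distal region the pooled log2 ratio went from -1.78 to -3.06. Celsr3 had 1 count, in a distal region.

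**Figure D3:**
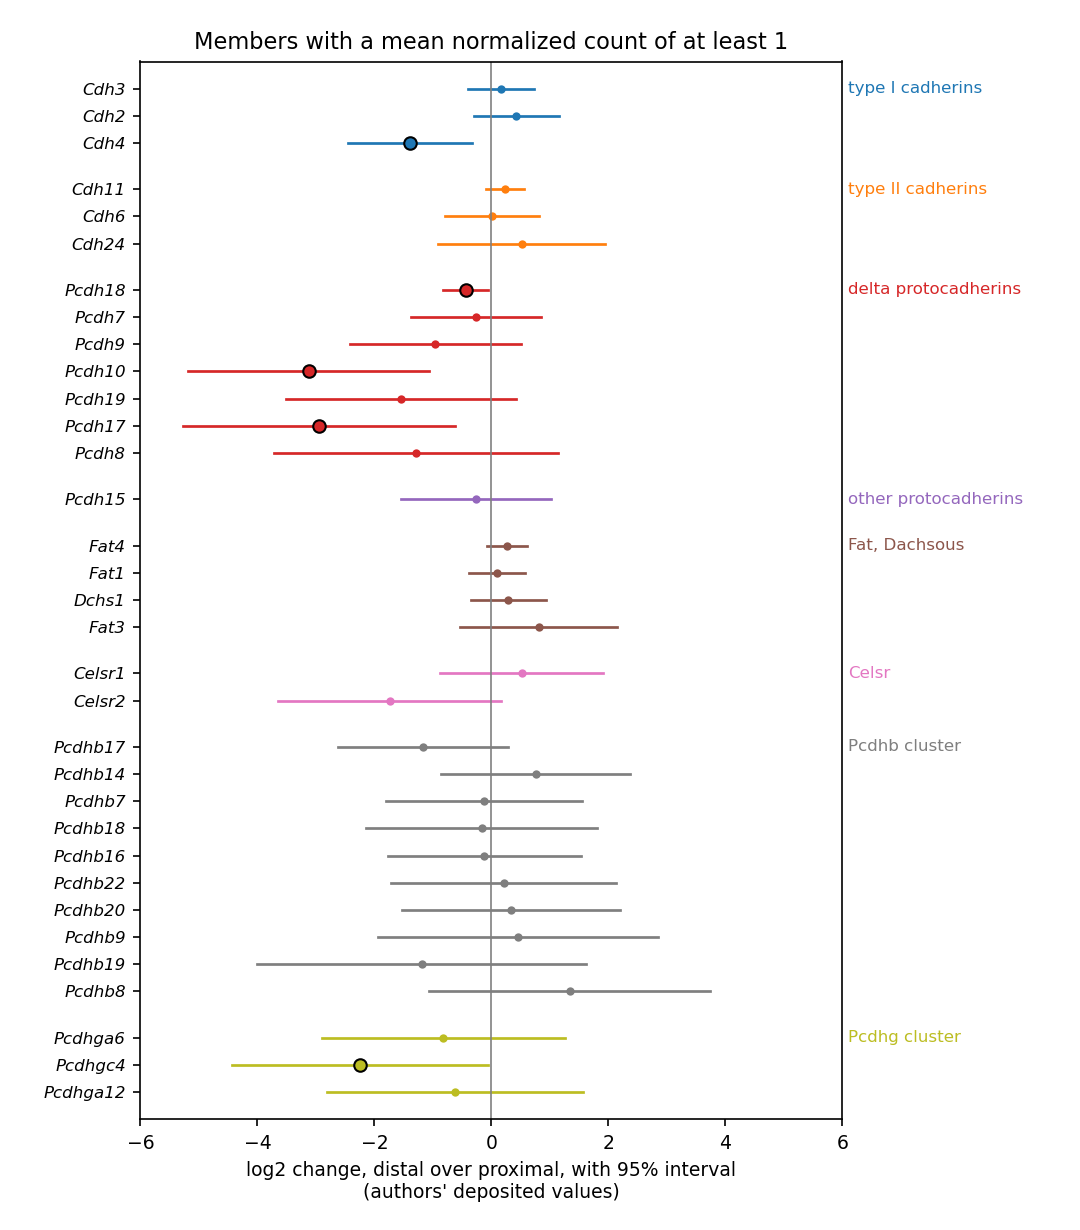
Authors' log2 change (distal over proximal) with its 95% interval for the 33 members with a mean normalized count of at least 1, grouped by family and ordered by mean within it. Larger, black-ringed points mark an unadjusted p under 0.05; the 5 drawn here are Cdh4, Pcdh18, Pcdh10, Pcdh17 and Pcdhgc4, and the 7 delta protocadherins all lie below 0.

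Clustered protocadherins are encoded in 3 neighbouring clusters, and each neuron is known to choose a few of their promoters, which gives it a surface identity. They were scarce in the organoid regions: each of the 33 had a mean of at most 3.47 normalized counts, and 20 had a mean under 1. The authors' deposited table called none, and Pcdhgc4 alone had an unadjusted p under 0.05. All 12 Pcdhg genes in the table end in the same last 300 bases as other Pcdhg genes, the constant exons, and reads there cannot be told apart between them. Of the Pcdhb genes, which are single-exon genes with ends of their own, Pcdhb21 matched Pcdhb22 at 95% identity or more over at least 200 bases. The end of Pcdhb21 (chr18:37513621-37518325) lies within the annotated span of Pcdhb22 (chr18:37517871-37524479) on the same strand. That match is therefore not read as a duplicated end. None of the 35 non-clustered members had a match of that length and identity in another gene.

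Pcdhb17 (6 distal and 44 proximal counts), Pcdhb14 (8 and 16) and Pcdhb7 (6 and 22) had the highest means of the Pcdhb cluster. The log2 change of Pcdhb17 was -1.16 ± 0.74 (SE), that of Pcdhb14 0.76 ± 0.82 and that of Pcdhb7 -0.13 ± 0.86 in the authors' deposited table. These 3 genes thus lay on both sides of 0, and their 95% intervals included it. The other 18 Pcdhb genes had at most 6 distal and 21 proximal counts each, and none had an unadjusted p under 0.05 in the authors' deposited table. Summed over 21 genes, the Pcdhb cluster read 25.2, 17.2, 21.5, 17.6 and 18.3 normalized counts in distal and 26.5, 20.8, 29.7, 25.5 and 28.0 in proximal regions. Means were 20.0 ± 3.40 and 26.1 ± 3.34 (SD, n = 5 regions each), and 60 distal against 250 proximal counts gave a 1.26-fold lower level in distal regions with a 95% counting interval of 0.9502 to 1.70.

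Among the Pcdhg genes, Pcdhgc4, one of the C-type isoforms, had 1 distal and 22 proximal counts. Its proximal regions read 2.07, 1.81, 2.04, 1.91 and 3.99 normalized counts, and the single distal count lay in the second distal region at 1.43. The log2 change of Pcdhgc4 was -2.25 ± 1.12 (SE), with an unadjusted p of 0.0442 and an adjusted p of 0.869 per the authors' deposited table. Pcdhga6 had 3 distal and 18 proximal counts and Pcdhga12 had 3 and 16; because of the shared ends, these assignments to single genes are uncertain. The other 9 Pcdhg genes had at most 3 distal and 3 proximal counts each, and 8 of them had 0 distal counts. Summed over 12 genes, the cluster read 1.202, 7.16, 0, 5.88 and 3.04 normalized counts in distal and 9.93, 5.88, 5.62, 6.38 and 7.32 in proximal regions, with overlap. The 10 distal and 69 proximal counts gave a 2.09-fold lower level in distal regions, with a 95% counting interval of 1.07 to 4.56 that leaves the spread between regions out.

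**Figure D4:**
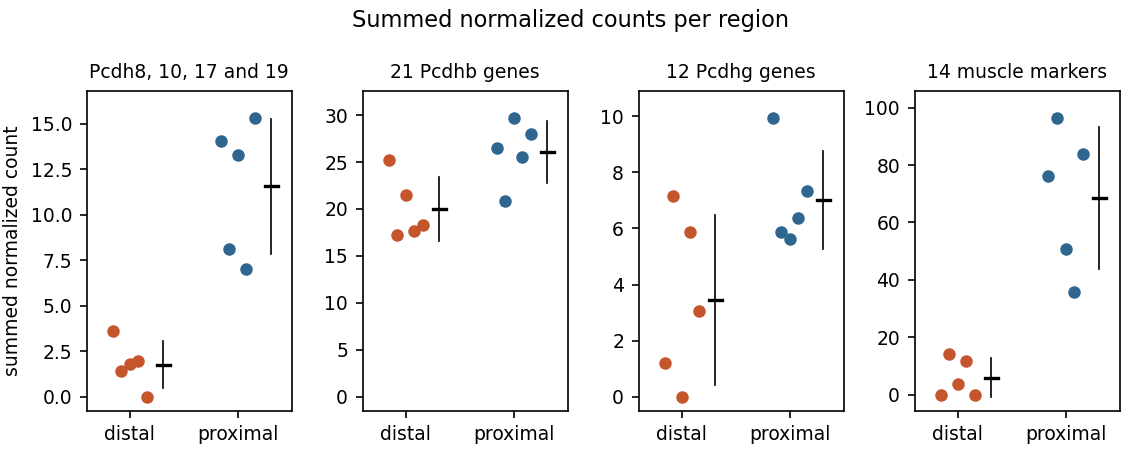
Summed normalized counts per region for 4 delta-2 protocadherins, the Pcdhb cluster, the Pcdhg cluster and 14 skeletal muscle markers, 1 point per region, with mean ± SD beside each set of 5. The delta-2 genes drawn are Pcdh8, Pcdh10, Pcdh17 and Pcdh19, grouped after the values had been seen, and Pcdh18 is left out. The delta-2 sums (0 to 3.61 against 7.02 to 15.3) and the muscle marker sums (0 to 14.3 against 35.7 to 96.3) do not overlap between sides, while the sums of both clusters do.

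The partners through which cadherins act were read from 6 lists. Of 18 measured catenin and nectin partners, 0 were called in either direction, with a median log2 change of 0.03 per the authors' deposited table. Ctnna1, the α-catenin that links cadherins to actin, was tightly measured at 0.07 ± 0.15 (SE) in the authors' deposited table. Ctnnd1, the p120 catenin that keeps cadherins at the surface, was at -0.38 ± 0.22 and Ctnnb1, β-catenin, at 0.60 ± 0.90 (SE) on the log2 scale of the authors' deposited table. Jup (plakoglobin, a junction catenin) had a log2 change of 0.80 ± 0.34 (SE, unadjusted p = 0.0198, adjusted p = 0.589) in the authors' deposited table. Afdn (afadin, the link between nectins and actin) was at -1.71 ± 0.51 (SE), with an adjusted p of 0.0738 per the authors' deposited table. Its 12 distal and 125 proximal counts place it just outside the threshold.

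All 27 Hippo pathway and Fat partners were measured and 0 were called, with a median log2 change of 0.08 per the authors' deposited table. Tead1, the DNA-binding partner of YAP, was at 0.46 ± 0.18, Ccn2, a known target of YAP, at 1.87 ± 0.83 and Frmd6, an upstream Hippo protein, at -0.79 ± 0.40 (SE) on the log2 scale of the authors' deposited table. Their unadjusted p-values were 0.00848, 0.0238 and 0.0486 in the authors' deposited table, and no adjusted p was under 0.05.

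Among 17 measured planar polarity partners of Celsr proteins, 2 were called, both higher in distal regions (0.395% of all genes), and 0 were called lower (0.582% of all genes), with a median log2 change of -0.04 per the authors' deposited table. Wnt5a, the ligand that orients limb outgrowth, was higher by a log2 change of 0.96 ± 0.19 (SE, adjusted p = 0.000137) in the authors' deposited table. Levels computed from that change and the deposited mean were 125 normalized counts in proximal and 242 in distal regions. Prickle1, a core polarity protein, was higher by 1.202 ± 0.29 (SE, adjusted p = 0.00686) on the log2 scale of the authors' deposited table. Vangl2, its membrane partner, was at 0.74 ± 0.28 (SE, adjusted p = 0.337) in the authors' deposited table. The Celsr genes themselves were at 0.52 ± 0.71 for Celsr1 and -1.74 ± 0.97 (SE) for Celsr2 on the log2 scale of the authors' deposited table.

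All 16 regulators of the clustered protocadherins (CTCF, cohesin and DNA methylation genes) were measured and 0 were called, with a median log2 change of 0.18 per the authors' deposited table. Ctcf, which binds the clustered promoters, was at 0.17 ± 0.36 and Smchd1, which helps to silence the clusters, at 0.63 ± 0.27 (SE, unadjusted p = 0.0200) on the log2 scale of the authors' deposited table. Of 10 measured desmosomal cadherins, calsyntenins and other superfamily genes, 0 were called in the authors' deposited table. Clstn2, a calsyntenin of synapses, had the one unadjusted p under 0.05 among them (log2 change -2.02 ± 0.84, SE, p = 0.0161) in the authors' deposited table. All 10 genes for cadherin cleavage and for transcription factors that repress or induce cadherins were measured and 0 were called. Zeb2, a repressor of Cdh1, was at -1.60 ± 0.70 (SE, unadjusted p = 0.0218, adjusted p = 0.620) in the authors' deposited table. Its distal regions read 3.61, 0, 0, 0 and 18.3 normalized counts, and its proximal regions lay between 7.16 and 17.4. The highest region of Zeb2 was thus a distal one, the shallowest.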

How the data were processed

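RNA was measured in 5 barcoded regions of each side, which were combined into 1 library a side. The authors deposited 1 table of protein-coding genes, in the column layout of DESeq2 per the file headers. It holds for each gene a mean over regions, which is a normalized count (a signal already divided by size factors), a log2 fold change with its SE on the log2 scale, a statistic (a score, the change divided by its SE) and p-values with adjusted p-values, all as the authors deposited them. The submitters' processing notes name mm10 and GRCm38. The aligner and the counting of reads or molecules are not given in the sources used here.

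Calls are the authors' adjusted p under 0.05, and test values are theirs except where the dependence on the processing is described. There, p-values were adjusted anew (Benjamini-Hochberg), for the centrings after the median had been taken off each log2 change. No count test was run. Size factors of the 10 regions were read from the steps shared by genes with 1 count. For each member with a mean of up to 15, the whole counts per region were then searched that gave the deposited mean and, through the same negative binomial fit, the deposited log2 change within 1e-09. For 62 of 62 such members 1 set fitted. The side of a region follows from the size of the deposited log2 change of genes with 1 count there. The larger value, 2.34, was taken as distal and the smaller, 1.19, as proximal, since a positive change means higher in distal regions. The limit of 15 and the tolerance were tightened after Dchs1 matched more than 1 set. The method was tested on simulated data. Cdh11, Pcdh18, Cdh3, Fat4, Fat1 and Dchs1 have no region counts.

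Pooled ratios divide each side's counts by its size factors (sums of 2.93 and 9.65), with 95% exact binomial (Clopper-Pearson) intervals that cover counting error only. A side with 0 counts is set to a limit of 3 counts, a level of 1.02 in distal and 0.311 in proximal regions. Python 3.11.15, numpy 2.4.6 and scipy 1.17.1 were used. The members, gene lists and tests were chosen with earlier results of these data known, and the families, the promoters shown and the leaving out of regions after the values had been seen. Named genes are the members with an unadjusted p under 0.05, the 12 non-clustered members with the highest mean, Cdh1 to Cdh5, Cdh11, Cdh15, the Fat, Dachsous and Celsr genes, the top 3 of each cluster, and partners with an unadjusted p under 0.05 or central to a list. The remaining non-clustered members are named beyond the rule, and the remaining clustered ones are given by counts and ranges.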

Additional observations from a re-analysis of the deposited data

Results flagged for a closer look

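Among 25 sets of 5 regions tested for a value that stands apart (members named by rule, on a side with at least 10 counts), 3 were picked out because the gap to the nearest region took more than 0.71 of the range. Chance picks out about 1 in 20 such sets where values are normally distributed; the share for small counts such as these was not measured. Cdh4 in the distal regions reached 12.9 normalized counts in the second region, against 0 to 3.58 in the others. Pcdh10 in the proximal regions reached 7.99 in the shallowest region, against 3.17 to 4.09 in the others. Pcdhgc4 reached 3.99 in the same shallowest proximal region, against 1.81 to 2.07 in the others.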

How the results depend on the processing

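The count of 0 called members was the same under all 7 alternatives (thresholds of 0.01 and 0.1, adjustment over this table or over genes whose mean was at least 10, both centrings, and a log2 change of at least 1). For both thresholds and for the log2 change of at least 1 this was fixed in advance. The smallest adjusted p among the members was 0.195 in the authors' deposited table. Only the adjustments and the centrings could have changed the count. The 2 called partner genes became 1 (Prickle1) when a log2 change of at least 1 was also asked. They became 3 at a threshold of 0.1 or when centred on the median of all genes. On that centring Afdn reached a recalculated adjusted p of 0.0467 (centred log2 change over its SE), against 0.0738 in the authors' deposited table. Cdh6 turned to -0.062 on centring on that median; the other named genes kept their direction, and besides Afdn none changed its call. The median log2 change of the non-clustered members, 0.23, became -0.13 over those with means of at least 1, -0.0099 as a mean, 0.0033 as a weighted mean and 0.025 as a ratio of summed counts. That of the clustered protocadherins, 0.21, became -0.13 over those with means of at least 1, -0.25 as a weighted mean and -0.47 as a ratio of summed counts; no clustered gene had a mean of at least 10. Leaving out 1 region at a time, an alternative chosen after seeing the data, moved the pooled log2 ratio of Cdh6 from 0.02 to between -0.37 and 0.25, that of Pcdh19 from -1.50 to between -2.60 and -1.11, that of Pcdh9 from -0.94 to between -1.55 and -0.64, that of the Pcdhg cluster from -1.07 to between -1.67 and -0.74, and that of the 4 delta-2 genes from -2.50 to between -3.02 and -2.33. Adding Pcdh18 to those 4 genes, also chosen after seeing the data, took that ratio to -0.57. Depth limits all members with few counts, above all on the distal side. No paired analysis was possible because each side is 1 library and nothing ties a distal region to a proximal one.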
